A study of Mus musculus with 2 samples.

Results

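A set of genes tied to T helper 17 (Th17) cells was followed in single CD4 T cells that recognise a peptide carried by a gut-colonizing fungus. They are Rora, Stat3, Batf, Irf4, Hif1a and Ccr6, chosen by name. All 6 members were found among the 12432 genes of the deposited table, and 5 of them were detected in at least 10% of cells, Irf4 being the exception. The cells were 2W1S-specific CD4 T cells sorted from the spleen and the peripheral lymph nodes of mice of the C57BL/6 strain that had been colonized with recombinant Candida albicans expressing the 2W1S model antigen (CA-2W1S). Both samples of the series carried that same label, an April 2016 capture of 96 cells and a March 2016 capture of 82 cells. Single cells were caught in Fluidigm C1 chips and amplified with the SMART-Seq v4 kit, a full-length chemistry without molecular identifiers. Each capture held 2 runs by the column names, Apr13 and Apr21 with 48 cells each, and Mar1 and Mar17 with 25 and 57 cells. No uncolonized group was analysed here, so nothing below compares colonized with uncolonized mice. How many mice gave each pool is not given in the sources used here.

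Th17 cells are CD4 T cells that make interleukin-17 family cytokines and defend barrier surfaces against fungi and extracellular bacteria, Candida among them. Cytokines such as interleukin-6 and interleukin-23 act through STAT3. BATF and IRF4 bind DNA together early after activation and open sites at which STAT3 and the ROR receptors then act. HIF-1 alpha ties the program to glycolysis, and CCR6 is a receptor by which many Th17 cells home towards its ligand CCL20. None of the 6 genes belongs to Th17 cells alone: Batf and Irf4 are induced in most activated T cells and in B cells, Ccr6 is carried by B cells and some regulatory T cells, and Stat3 and Hif1a are broadly expressed.

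The values are log2(linear value + 1), where the linear value is a TPM-like number whose sum over genes lay between 892206 and 979888 per cell. A gene was counted as present at a linear value of at least 1, since many values above 0 were lower than that. April cells had a median of 4933.5 detected genes and March cells one of 5344. Mitochondrial transcripts made up 65.8% to 93.9% of 3 cells in the run Mar1 and no more than 38.2% of the others. Cd3d and Cd3g, chains of the T cell receptor complex, were present in 100% of cells and Cd4 in 70.8%. Genes of other cell types gave a measure of the low-level signal, which was uneven. Of B cell genes, Pax5 was present in 14.0% of cells, Cd22 in 42.1% and Ebf1 in 88.8%. The myeloid genes Itgam and Csf1r were present in 40.45% and 2.81%. Of CD8 T and NK cell genes, Cd8b1 was present in 19.7%, Cd8a in 6.74% and Klrb1c in 4.49%. At a linear value of 10 or above the shares were 2.25% for Pax5, 9.55% for Cd22 and 2.81% for Ebf1. They were 1.69% for Itgam and 10.7% for Cd8b1.

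Stat3 had the highest mean of log2 values and was present in the largest share of cells of the 6 genes, and Irf4 was lowest in both. The mean log2 value over the 2 captures was 4.01 ± 0.27 for Stat3, 2.28 ± 0.28 for Hif1a and 2.26 ± 0.44 for Batf (SD, n = 2 captures). It was 1.12 ± 0.44 for Rora, 1.08 ± 0.84 for Ccr6 and 0.22 ± 0.18 for Irf4 on the same scale. Hif1a and Batf did not differ beyond their spread, nor did Rora and Ccr6, and both of these pairs changed places between the captures. The order depended on the scale: the log2 of the mean linear value was 7.46 for Batf, 7.06 for Hif1a, 6.57 for Stat3, 6.38 for Ccr6, 4.94 for Rora and 1.39 for Irf4, which put Batf and Hif1a above Stat3. By the mean of log2 values, of all 12432 genes 94.4% had a lower mean log2 value than Stat3, 63.9% a lower one than Rora and 13.8% a lower one than Irf4.

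**Figure D1:**
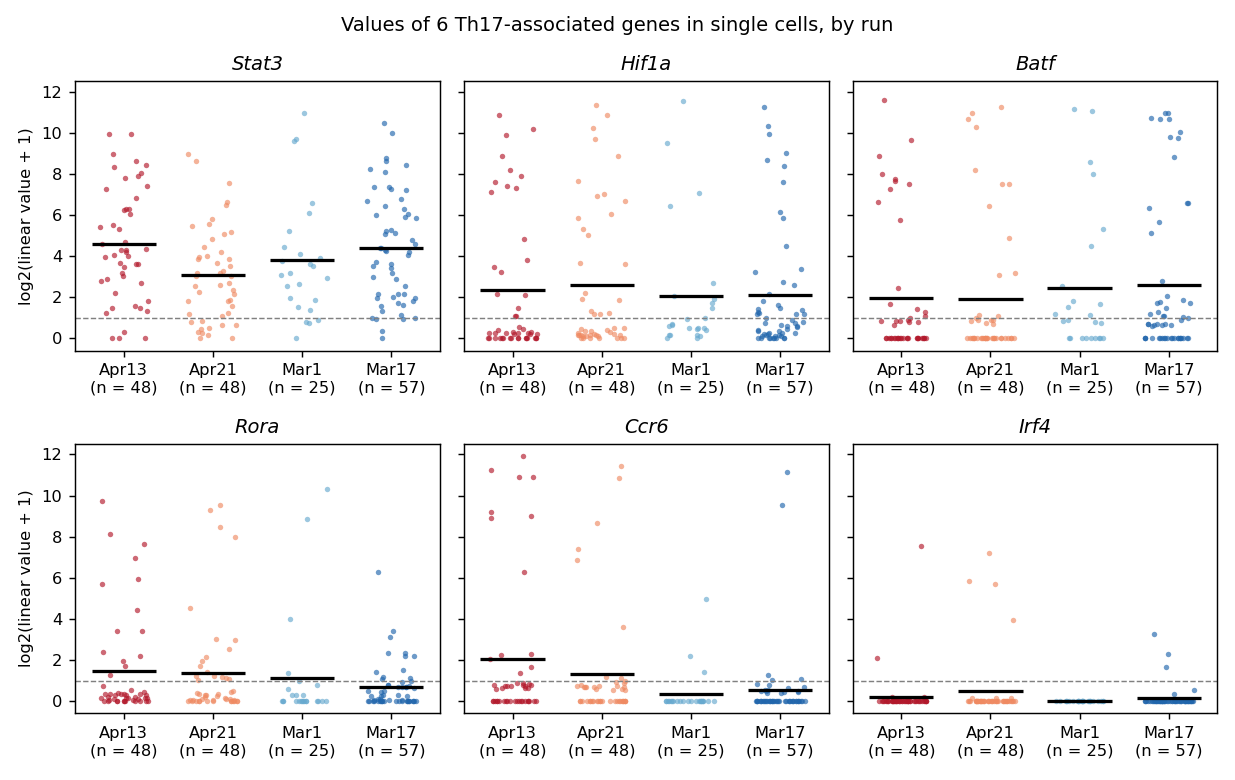
Each point is 1 cell, placed by its log2(linear value + 1) for the gene named above the panel, with runs on the horizontal axis (April runs left, March runs right), black lines at the run means and a dashed line at a linear value of 1. Stat3 spreads over the whole range in each run. Batf, Hif1a and Ccr6 have many cells near 0 and fewer cells spread above, and Irf4 is listed at 0 in all 25 cells of Mar1.

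Stat3 encodes the transcription factor activated by interleukin-6, interleukin-21 and interleukin-23 (chromosome 11, positions 100885098 to 100939540, minus strand, mm10). Transcript was found in 81 of 96 April cells, 84.4% (95% interval 75.5% to 91.0%), and in 73 of 82 March cells, 89.0% (80.2% to 94.9%). Its mean log2 value was 4.57 in Apr13 and 3.07 in Apr21, against 3.81 in Mar1 and 4.38 in Mar17. Both April runs thus enclosed both March runs, and the highest and the lowest run came from the same month. The annotated span of Stat3 overlaps Stat5a on the other strand, and reads from such an overlap cannot be told apart where counting does not use strand.

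Batf encodes an AP-1 family factor that pairs with Jun proteins and binds beside IRF4 (chromosome 12, positions 85686669 to 85709087, plus strand). Batf was present in 28 of 96 April cells, 29.2% (20.3% to 39.3%), and in 39 of 82 March cells, 47.6% (36.4% to 58.9%). The run means were 1.98 and 1.92 in Apr13 and Apr21, against 2.47 and 2.62 in Mar1 and Mar17. Batf ranged widely in single cells: 83 cells in all were listed at 0, 67 reached a linear value of 1, 39 reached 10 and 28 reached 100. Those 28 cells fell evenly on the months, as 15.6% of April and 15.9% of March cells. The lower share in April therefore lay among cells below that level.

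Hif1a encodes the oxygen-regulated subunit of HIF-1 (chromosome 12, positions 73901375 to 73947530, plus strand). Hif1a was present in 41 of 96 April cells, 42.7% (32.7% to 53.2%), and 35 of 82 March cells, 42.7% (31.8% to 54.1%). At a linear value of at least 10 the shares were 29.2% in April and 17.1% in March, and above 0 the order was the other way round, with 73 of 96 April and 71 of 82 March cells. In cells where Hif1a was present its median log2 value was 5.88 in April and 2.67 in March. The annotated span overlaps the gene model Gm15283 on the other strand, which is also in the table.

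Rora encodes a nuclear receptor that acts in Th17 cells and is also found in other effector T cells and innate lymphoid cells (chromosome 9, positions 68653786 to 69388246, plus strand). Rora was present in 32 of 96 April cells, 33.3% (24.0% to 43.7%), and 16 of 82 March cells, 19.5% (11.6% to 29.7%). The run means were 1.48 in Apr13 and 1.38 in Apr21, against 1.11 in Mar1 and 0.68 in Mar17. Low values were common for Rora: 69 cells had a linear value above 0 and under 1, 48 reached 1, and 10 reached 100. The 25 cells of Mar1 held 4 cells with Rora, and the highest value of all cells, 10.33, was among them.

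Irf4 encodes a factor induced by T cell receptor signals and needed for Th17 and other effector fates (chromosome 13, positions 30749226 to 30766976, plus strand). It was present in 6 of 96 April cells, 6.25% (2.33% to 13.1%), and in 3 of 82 March cells, 3.66% (0.761% to 10.3%). Mar1 listed it at 0 in all 25 cells. By a floor of 3 counts this allows a share of cells with a value of up to 12.0%, and the exact upper bound is 13.7%. Neither limits how many cells express the gene. A linear value of 10 was reached in 5 cells, all of them from April.

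Ccr6, the only surface receptor of the 6 genes (chromosome 17, positions 8236043 to 8257141, plus strand), was seen in 21 of 96 April cells, 21.9% (14.1% to 31.5%), and in 8 of 82 March cells, 9.76% (4.31% to 18.3%). The run means were 2.05 and 1.31 in Apr13 and Apr21, against 0.34 and 0.55 in Mar1 and Mar17. In the cells where it was present the median log2 value was 7.39 in April and 1.81 in March. Cells that reached a linear value of 10 numbered 8 in Apr13 and 6 in Apr21, against 1 in Mar1 and 2 in Mar17, so few March cells held the receptor transcript at a high level.

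The stretch upstream of Ccr6 is shown because it holds letters that a member of the set is known to bind. RORα, the protein of Rora, recognises the ROR response element, AGGTCA behind a short AT-rich lead. The 250 bases before the first RefSeq start of Ccr6 (GRCm38.p6, chr17:8235793-8236042, plus strand, 5′ to 3′) are printed with a match to a 10-base form of this element in capitals, which reads AACTAGGTCA on the minus strand and ends 35 bases before the start.
Ccr6 upstream window: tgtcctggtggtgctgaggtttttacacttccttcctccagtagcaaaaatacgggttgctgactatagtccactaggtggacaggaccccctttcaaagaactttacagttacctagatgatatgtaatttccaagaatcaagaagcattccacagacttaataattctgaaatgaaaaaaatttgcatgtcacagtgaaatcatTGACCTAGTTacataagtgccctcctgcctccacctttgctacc
Searched on both strands, this element, with any base allowed at its position 3, was held by 58 of 32841 upstream windows of the same length (0.177%), and its core AGGTCA by 14.0%; the core lies within the element, and the element was chosen with the Ccr6 window in view. All 6 members matched RefSeq starts, in 7 windows since Ccr6 has 2. The element was in none of the other 6 windows, and the core alone was also in that of Hif1a. The palindromic STAT motif TTCNNNGAA, in 7.02% of windows, was found at 2 places in the first Ccr6 window and in no other member's. The AP-1 motif TGANTCA (6.75% of windows) and the interferon-stimulated response element (2.98%) were in none of the 7, and the hypoxia motif ACGTG (16.6%) was in those of Hif1a, Rora and the second start of Ccr6. These matches are letters in a window and were not measured as bound sites.

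**Figure D2:**
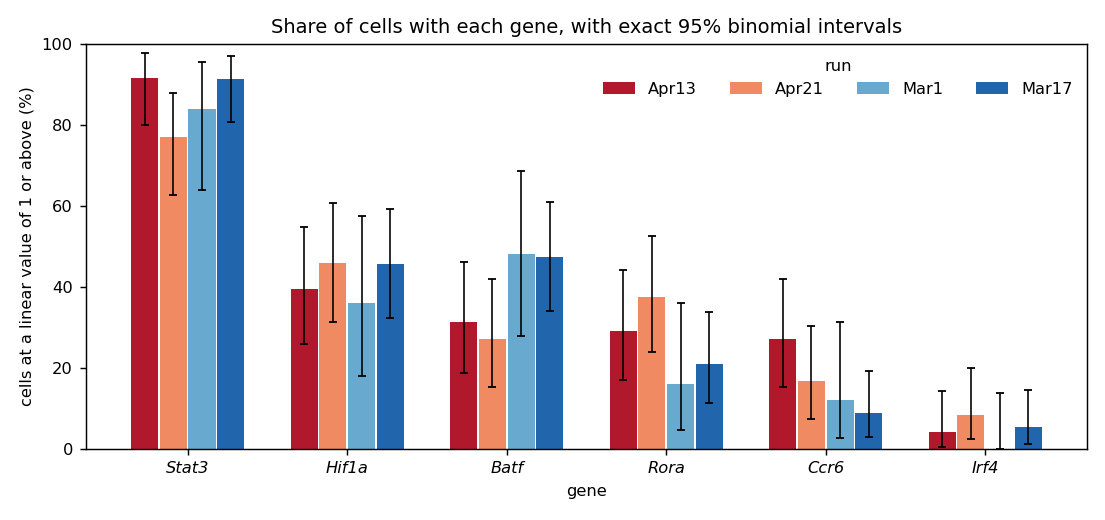
Bars give the percentage of cells in which each gene reached a linear value of 1, by run (April runs left of March runs), with exact Clopper-Pearson 95% intervals that cover counting error only. Batf bars are lower and Rora and Ccr6 bars higher in both April runs than in both March runs, with overlapping intervals.

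The month of capture was the one difference between the samples that the labels give, and with 1 sample a month it was described and not tested. Ccr6 was the member that stood apart: its mean log2 value was 1.68 in April and 0.49 in March, a difference of 1.19. A gene was counted as different when the means differed by at least 1 and both April runs lay on the same side of both March runs. By this rule 223 of 10795 genes (2.07%) were higher in April and 61 (0.565%) lower, and of the 5 members detected widely enough Ccr6 was higher, 0 were lower, and the other 4 did not reach it. Only 117 genes had a larger difference than Ccr6. Rora differed by 0.62, Hif1a by 0.39, Stat3 by -0.38 and Batf by -0.62, and Irf4, outside the count, by 0.25. Stat3 had no stable sign, with 0.37 without Apr21 and -1.13 without Apr13. Rora lay at 0.32 without Mar17. With a pseudocount of 10 Rora lay at 0.33 and Batf at -0.32. Irf4 lay at 0.11 without Apr21 and at 2.29 on the log2 of the mean linear value, and Hif1a at 0.16 on that scale. Without the size limit, the April runs lay above the March runs for Rora, Hif1a and Ccr6, and below them for Batf; over all genes 22.9% lay above and 14.6% below in this way. The median difference over all genes was 0.03. The difference of Ccr6 fell under the limit without the run Apr13 (0.82) and with a pseudocount of 10 (0.68), and stayed positive in both. Without the 3 mostly mitochondrial cells the difference of Ccr6 was 1.19 and those of the other 5 moved by less than the spread between runs within a month. Month, run and the different endings of the column names in the 2 months cannot be told apart.

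**Figure D3:**
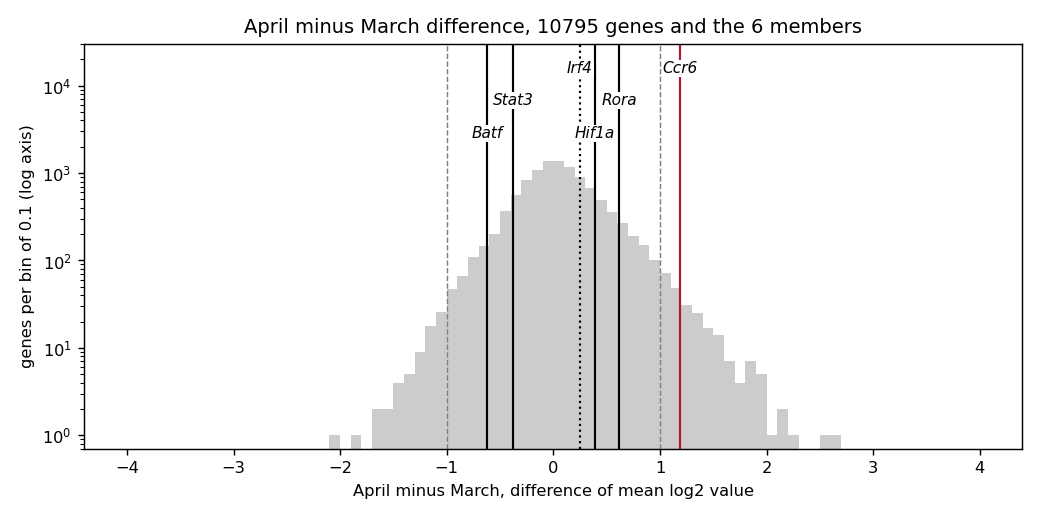
Grey bars count the 10795 genes detected in at least 10% of cells by their April minus March difference of the mean log2 value (log count axis, bins of 0.1), dashed lines mark -1 and 1, and labelled lines mark the members, Irf4 dotted because it lies outside the count. Ccr6 at 1.19 is the only member beyond a dashed line.

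Other genes of the pathway, from lists chosen with earlier results of these data known, were read by the same rule. Of the 8 Th17 receptors in the table, 0 passed in either direction, with a median difference of 0.12; the most abundant were the TGF-β receptors Tgfbr2 (1.92 in April and 1.36 in March) and Tgfbr1, the interleukin-21 receptor Il21r and the interleukin-6 receptor chain Il6ra. Of 6 kinases and feedback genes tested 0 passed; Jak1, a kinase upstream of STAT3, was the most abundant at 6.79 in April and 6.64 in March, followed by Ptpn2, Pim1 and Ptpn11. Of 17 other Th17 regulators 0 passed, with a median of 0.25. Maf, a factor of interleukin-10 and interleukin-21 producing T cells, averaged 6.37 in April and 4.64 in March, but its runs overlapped. Satb1, Nfkbiz and Nfatc1 followed in abundance, and Satb1, a chromatin organiser, stood at 3.80 in April and 4.76 in March.

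The cytokine gene Il17f was present in 20 of 96 April cells and was listed at 0 in all 82 March cells. The same floor allows a share of cells with a value of up to 3.66% there, and the exact upper bound is 4.40%. The level was high in few of them, since 5 April cells reached a linear value of 10. Neither of the 2 cytokine genes tested, Il17f and Il21, passed the month rule (median 0.77). Il21, a cytokine of Th17 and follicular helper cells, was present in 28.1% of April and 14.6% of March cells. Csf2 and Il10 were present in 6.18% and 2.25% of all cells. Il17a, Il22, Il23r and Ccl20 were not analysed here.

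Few partners and relatives of the members passed the month rule. Over all genes 2.07% passed it as higher and 0.565% as lower. In lists this short such counts do not measure how far the genes moved. Of 7 AP-1 genes, 1 was higher: the immediate early gene Fos averaged 5.90 in April and 4.65 in March, while Junb, the most abundant Jun gene, stood at 3.43 in April and 3.57 in March. Jun and Jund followed in abundance. Of 6 other interferon regulatory factors and of 6 other STAT genes, 0 passed; Irf1, Irf3, Irf2 and Irf7 led the first by level and Stat6, Stat4 and Stat5b were among the most abundant of the second. The median difference of the STAT genes was 0.41, against 0.03 over all genes. Of 10 oxygen-sensing genes 0 passed, with a median of 0.39, led by level by Elob, Rbx1, Eloc and Egln2. Arnt, which encodes the partner of HIF-1 alpha, was present in 16.7% of April and 17.1% of March cells. Of 20 Hif1a-linked genes 0 passed and the median was 0.02; Gapdh, Eno1, Ldha and Aldoa were the most abundant. Of 10 other chemokine receptors, with Ccr4, Ccr7 and Cxcr5 among the most abundant, 1 was lower: Ccr7, which guides naive and central memory T cells through lymph nodes, averaged 1.37 in April and 3.03 in March.

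Among markers of other cells, 0 of 3 B cell and 0 of 2 myeloid markers passed the month rule, and the summed level of the 3 B cell markers was 3.55 in April and 3.88 in March. Cd79a and Cd79b were not analysed here. Of 7 CD4 T cell markers 3 were higher in April, namely Trac, Cd3g and Cd2. Of the follicular helper markers Sh2d1a was higher, and of the group 3 innate lymphoid markers Id2, which T cells also express. The part of these shifts in the Ccr6 difference was not tested.

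Next, the 6 genes were compared with each other over cells. Of all cells, 11 held none of the 6 genes, 60 held 2, 42 held 3, 16 held 4, 6 held 5 and 0 held all 6. The mean number per cell was 2.18 in April and 2.12 in March. Spearman's rho over cells was computed in each capture as a description, for 15 pairs that share the same cells and their depth. The median of the 15 mean values was 0.07, and 9 pairs were positive in both captures.

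Cells with both genes of a pair outnumbered the product of the 2 shares within captures for 13 of the 15 pairs, which share cells and depth. Batf and Ccr6 were present together in 16 cells, where the product gives 9.93. Rora and Irf4 were together in 5, where it gives 2.58, with all 5 cells from April and 0 from March. The mean rho of Rora and Irf4 was 0.06, and -0.19 with run means removed. Batf and Irf4, whose proteins bind DNA as a unit, had the highest mean rho, 0.21 in April and 0.19 in March. They were present together in 5 cells, where the product of their shares within captures gives 3.18. Irf4 and Ccr6 followed with 0.13 in April and 0.23 in March, and Rora and Ccr6 with 0.18 in April and 0.13 in March. Rora and Ccr6 were found together in 12 cells, against 8.56 from the product. Rora and Hif1a had opposite signs, -0.16 in April and 0.14 in March. Within runs the values were uneven: Batf and Irf4 gave 0.39 in Apr13 and 0.06 in Apr21. For the members and the number of genes detected in a cell, Spearman's rho lay between 0.12 and 0.23 in April and between 0.06 and 0.35 in March. Given the genes detected, the median over the 15 pairs was 0.02. Weak values of this size in sparse data are not read as a relation.

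**Figure D4:**
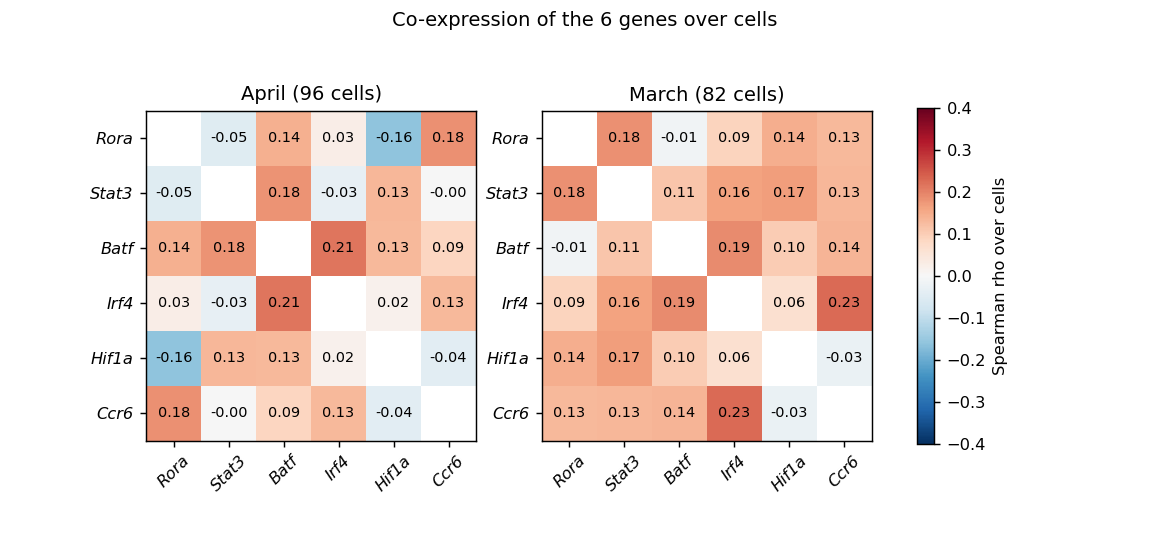
Each square gives Spearman's rho over the cells of a capture for a pair of genes, April (96 cells) left and March (82 cells) right, on a colour scale from -0.4 to 0.4. All values lie between -0.16 and 0.23, and Batf with Irf4 is positive in both panels.

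The genes whose values over cells were most like each member's were named by the mean rho of the 2 captures, among 6911 genes with a value above 0 in 25% or more of the cells of each. For Rora the nearest was Plcb4, a phospholipase C gene, with rho 0.39 in April and 0.51 in March, followed by Dhx16, Psme2b, Sephs1 and Cse1l. For Ccr6 they were Grb2, an adaptor of receptor signalling (0.20 in April and 0.49 in March), Trmt2b, Esyt1, Atg5 and Olfr536. For Stat3 they were Dhx16, Pcgf3, Gga2, Gm28047 and A830018L16Rik, and for Batf they included Slc35a3, Ints7, Clk2 and Igf1r. For Irf4 they were Zranb2, Fkbp5, Cyp4x1os, Txnl4a and Cops3, and for Hif1a Sh2d3c, Ankzf1, Sfxn2, Fxr1 and Ralgapb. The mean rho of these 5 sets, leaving out Rora's, was at most 0.35. Few neighbours were shared between the captures: of the 50 nearest genes in each, 2 were common for Rora and for Ccr6, 1 for Irf4 and 0 for Stat3, Batf and Hif1a.

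Last, cells with Ccr6 at a linear value of at least 1 (Ccr6-positive) were set against the remaining cells of the same capture (Ccr6-negative), 21 against 75 in April and 8 against 74 in March. The mean log2 values of each class in each capture were compared in limma with the capture as a block. Of 10794 genes, 0 passed an adjusted p of 0.05 in either direction (0% called). The lowest adjusted p in limma was 0.187, and 697 genes (6.46%) lay under 0.05 before adjustment. Of the 8 March Ccr6-positive cells, 1 was mostly mitochondrial. Without the 3 mostly mitochondrial cells the lowest adjusted p in limma was 0.8325, and 619 genes lay under 0.05 before adjustment. The SE of a gene here came mostly from the trend over all genes, and little from its own 2 captures. The class difference of Il17f was 2.22 in April and 0 in March, with an SE of 0.38. That of Lef1 was -2.18 in April and -2.31 in March, with an SE of 0.71. These p-values thus do not measure the spread of each gene between captures. Nothing says which mice each capture came from, so the spread of the 2 captures may be technical. Ccr6-positive cells had slightly more genes detected, with a median of 5004 against 4932 in April and 5599.5 against 5314.5 in March; the part of this in the differences was not tested.

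None of the other members tested passed. Batf averaged 2.29 in Ccr6-positive against 1.86 in Ccr6-negative cells of April, and 3.95 in Ccr6-positive against 2.42 in Ccr6-negative cells of March, a difference of 0.98 ± 0.64 (SE; 95% interval -0.27 to 2.24). It was present in 9 of 21 in Ccr6-positive and 19 of 75 in Ccr6-negative cells of April, and in 7 of 8 in Ccr6-positive and 32 of 74 in Ccr6-negative cells of March. Rora differed by 0.38 (interval -0.66 to 1.42), Stat3 by 0.12 (-1.26 to 1.50) and Hif1a by -0.36 (-1.56 to 0.83), and none of the 4 had an unadjusted p under 0.05. On the log2 of the mean linear value the differences turned to -1.31 for Batf, -1.18 for Rora and -0.85 for Stat3. The difference of Rora was also negative without Apr13 or Mar17, at -0.07 each, and that of Hif1a positive without Apr21, at 0.0363. Rora was present in 42.9% of Ccr6-positive and 30.7% of Ccr6-negative April cells, and in 37.5% of Ccr6-positive and 17.6% of Ccr6-negative March cells. Irf4, below the detection limit of the test, averaged 0.63 in Ccr6-positive against 0.27 in Ccr6-negative cells of April, and 0.41 in Ccr6-positive against 0.07 in Ccr6-negative cells of March.

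No other Th17 gene passed over all genes, and the values differed between genes and runs. All 4 Th17 markers tested besides Ccr6, Rora among them, had a positive difference, with a median of 0.62, against 0.07 for all genes, of which 57.1% were positive. Of these 4, 2 were higher, Il17f among them, at an unadjusted p under 0.05, as were 4.03% of all genes. Il17f was present in 13 of 21 Ccr6-positive and 7 of 75 Ccr6-negative April cells. The 5 cells with Il17f at a linear value of at least 10 were all Ccr6-positive, 3 from Apr13 and 2 from Apr21. Its mean was 2.53 in Ccr6-positive and 0.30 in Ccr6-negative April cells, and it was listed at 0 in both classes in March. The fitted difference of 1.11 ± 0.38 (SE; adjusted p = 0.684 in limma) averages the April value with that March 0. Il1r1, the interleukin-1 receptor of Th17 cells, was lower in Ccr6-positive cells of Apr21 and Mar1 and higher in those of Apr13 and Mar17, with differences of -0.38, -0.53, 0.87 and 1.29 in that order of runs. The runs were divided in the same way for Rora, with -0.42 and -0.62 in Apr21 and Mar1 and 1.11 and 0.74 in Apr13 and Mar17. By capture Il1r1 averaged 1.12 in Ccr6-positive against 0.74 in Ccr6-negative cells of April, and 0.99 in Ccr6-positive against 0.37 in Ccr6-negative cells of March.

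Of 17 other Th17 regulators 14 had a positive difference (median 0.46), and 2, Maf among them, had an unadjusted p under 0.05. Of 8 Th17 receptors 4 were positive (median 0.11), of 6 kinases and feedback genes 3 (-0.05), of 20 Hif1a-linked genes 15 (0.17) and of 10 oxygen-sensing genes 4 (-0.15). Of 7 AP-1 genes 4 were positive (0.09), of 6 other interferon regulatory factors 3 (0.09), of 6 other STAT genes 3 (0.17) and of 10 other chemokine receptors 7 (0.28). None of these genes passed over all genes.

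The 4 genes with the smallest p and a higher level in Ccr6-positive cells of both captures were Med6, Tfam, Dynlt1a and Gm17604. The 4 lower ones were Gm11808, Mlx, Lef1 and Trbj2-7. Lef1, a factor of naive and stem-like T cells, averaged 4.26 in Ccr6-positive against 6.44 in Ccr6-negative cells of April, and 4.12 in Ccr6-positive against 6.43 in Ccr6-negative cells of March (-2.24 ± 0.71, SE; adjusted p = 0.673 in limma). Among the higher genes, Aqp3, Serpinb1a, Tmem176b and Tmem176a stood at places 5, 9, 10 and 11 by p; they were singled out after their values were seen, as genes known from mouse Th17 cells. Serpinb1a, a protease inhibitor, averaged 1.81 in Ccr6-positive against 0.06 in Ccr6-negative cells of April, and 1.28 in Ccr6-positive against 0.01 in Ccr6-negative cells of March. Tmem176b, which encodes a membrane protein, averaged 3.85 in Ccr6-positive against 0.78 in Ccr6-negative cells of April, and 1.72 in Ccr6-positive against 0.67 in Ccr6-negative cells of March. Aqp3, a water and glycerol channel gene, averaged 2.37 in Ccr6-positive against 0.51 in Ccr6-negative cells of April, and 2.97 in Ccr6-positive against 0.47 in Ccr6-negative cells of March. Tmem176a, a relative of Tmem176b, averaged 2.57 in Ccr6-positive against 0.68 in Ccr6-negative cells of April, and 2.24 in Ccr6-positive against 0.25 in Ccr6-negative cells of March. Without the run Mar17 the differences were 0.65 for Tmem176a (1.94 with it), 1.12 for Tmem176b (2.06 with it) and 0.88 for Serpinb1a (1.51 with it), and that of Aqp3 was 3.09 (2.18 with it). Leaving out Mar17 keeps only 3 Ccr6-positive cells in March. The adjusted p-values of these 4 genes lay between 0.205 and 0.368 in limma.

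**Figure D5:**
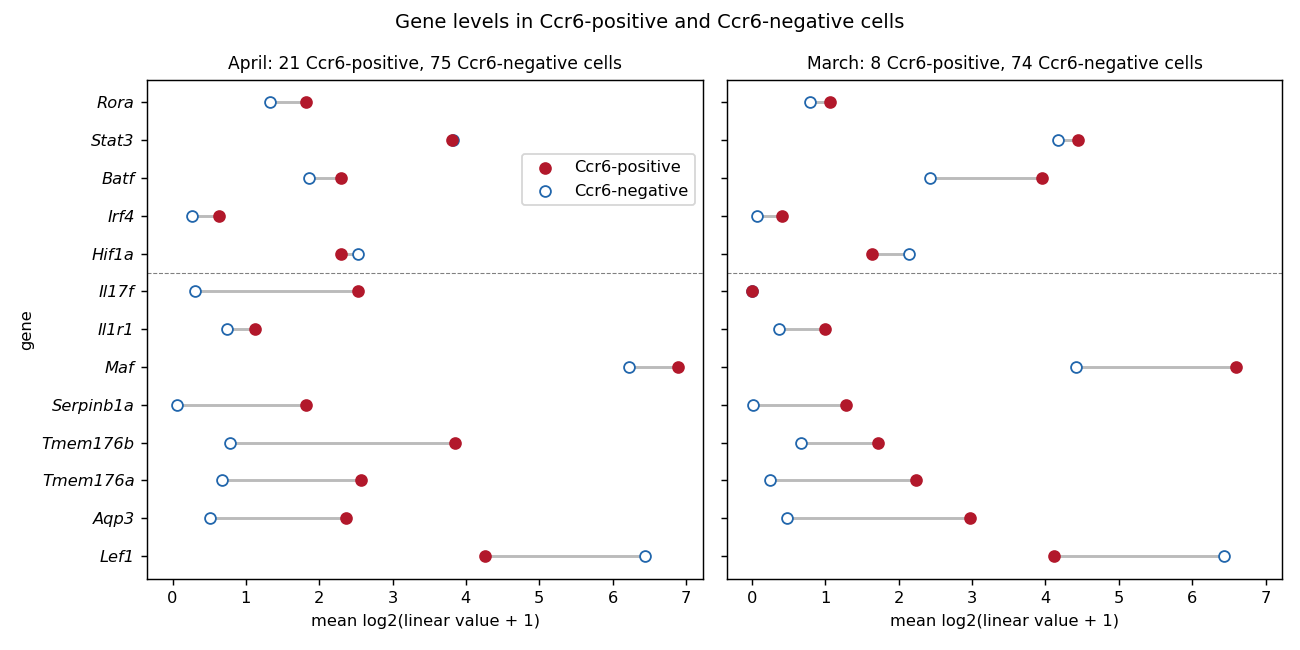
Filled red points give the mean log2 value in Ccr6-positive cells and open blue points that in Ccr6-negative cells, for April (left) and March (right), the other members above the dashed line and further genes below it; Serpinb1a, Tmem176a, Tmem176b and Aqp3 were chosen after their values were seen. Of the genes below the line, all but Lef1 and, in March, Il17f lie higher in Ccr6-positive cells, and 0 of the genes tested passed the adjusted test.

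Markers of other cell types were compared between the same classes. The 3 B cell markers in the table summed to 3.38 in Ccr6-positive against 3.59 in Ccr6-negative cells of April, and 4.45 in Ccr6-positive against 3.82 in Ccr6-negative cells of March. Pax5 was present in 2 of 29 Ccr6-positive and 23 of 149 Ccr6-negative cells. By this share over both captures the other 2 went the other way or were near equal. Cd22 was present in 14 of 29 Ccr6-positive and 61 of 149 Ccr6-negative cells, and Ebf1 in 26 of 29 and 132 of 149. By mean log2 value Cd22 was lower in Ccr6-positive cells, at 1.31 against 1.56 in April and 0.95 against 1.34 in March. Pax5 was lower in those of April (0.12 against 0.36) and higher in those of March (0.97 against 0.53). Ebf1 was higher in both (1.94 against 1.675 in April and 2.53 against 1.95 in March). The 2 myeloid markers summed to 0.95 in Ccr6-positive against 1.24 in Ccr6-negative cells of April, and 0.77 in Ccr6-positive against 1.30 in Ccr6-negative cells of March. The 7 CD4 T cell markers summed to 49.3 in Ccr6-positive against 54.7 in Ccr6-negative cells of April, and 44.1 in Ccr6-positive against 47.3 in Ccr6-negative cells of March, with Cd2 lower at an unadjusted p under 0.05. The 5 group 3 innate lymphoid markers in the table summed to 18.3 in Ccr6-positive against 13.95 in Ccr6-negative cells of April, and 14.9 in Ccr6-positive against 11.9 in Ccr6-negative cells of March, and 3 of them (Il7r and Id2, which T cells also express, among them) had an unadjusted p under 0.05. Kit was not analysed here. The 7 follicular helper markers summed to 20.9 in Ccr6-positive against 19.3 in Ccr6-negative cells of April, and 16.8 in Ccr6-positive against 13.4 in Ccr6-negative cells of March; 4 had a positive difference, and Icos had an unadjusted p under 0.05. The 3 CD8 T and NK cell markers in the table summed to 1.70 in Ccr6-positive against 0.988 in Ccr6-negative cells of April, and 1.40 in Ccr6-positive against 1.56 in Ccr6-negative cells of March. The 5 regulatory T cell markers summed to 7.78 in Ccr6-positive against 7.85 in Ccr6-negative cells of April, and 9.77 in Ccr6-positive against 9.14 in Ccr6-negative cells of March, and 3 of them had a positive difference (median 0.05). Foxp3, their defining gene, was present in 0 of 29 Ccr6-positive and 8 of 149 Ccr6-negative cells. Of the cells with Foxp3, 7 were from March, where only 8 cells were Ccr6-positive, so this 0 says little. The part of these markers in the class differences was not tested.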

How the data were processed

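Single-cell RNA-seq of 178 sorted cells was used. The authors deposited 1 table of log2 values for 12432 genes, and the submitters' processing notes name the build mm10. Aligner and counter: not given in the sources used here. The reading as log2(TPM-like value + 1) comes from the values: back-transformed sums per cell lay between 892206 and 979888. The number of reads behind a value is unknown. The table looks filtered: no gene has fewer than 4 cells above 2. Of the Ensembl IDs 12163 matched a symbol and 269 did not. Coordinates come from GENCODE vM21, and upstream sequences from RefSeq (GRCm38.p6).

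The members and lists were chosen with earlier results of these data known. Both captures formed 1 group with 2 replicates; runs within a capture count as 1. Intervals of shares are exact (Clopper-Pearson, 95%) and hold for counting error alone. The Ccr6 classes were compared with limma 3.58.1 (R 4.3.3) on mean log2 values of 4 pseudobulk libraries, with trend, capture as block and 1 residual degree of freedom, two-sided with Benjamini-Hochberg adjustment at 0.05 over genes above 0 in 10% or more of cells, leaving out Ccr6; classes come from the same captures, hence the block. The scripts were checked on simulated data. No cells were left out and no doublet caller was run; the highest correlation between 2 cells was 0.5215. Named were the 6 members, the 4 most abundant genes of each pathway list and any past a rule, the 5 nearest genes per member and the 4 smallest p-values per direction in the Ccr6 classes. Python 3.11.15, numpy 2.4.6 and SciPy 1.17.1 were used. A few genes that these rules would name are not reported here.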

Additional observations from a re-analysis of the deposited data

How the results depend on the processing

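Of 491 values under alternative settings 384 were labelled the same, 93 moved, 2 below the rule and 12 reversed. The causes were not tested. A tested class difference was the same when its sign and test outcome held, whatever its size. Some labels could only read the same, so the count of 384 overstates stability. These were levels and the rho of single pairs without 1 replicate, and member month differences with no filter on genes. Reversals were labelled only for class differences and, by month, for Ccr6. Other sign changes are not among the 12, such as the Stat3 month difference of 0.37 without Apr21 (-0.38 as reported). The month counts depended most on the setting. With log2 of the mean linear value 1301 genes were higher and 783 lower in April (62.4% of calls higher, against 78.5% as reported), with a pseudocount of 10 the counts were 45 and 1 (97.8%), and with quantile normalization 159 and 129 (55.2%). Without the 3 mostly mitochondrial cells they were 184 and 81. Leaving out 1 run gave 226 to 755 higher and 110 to 171 lower genes. With a run left out, only 1 run of that month has to lie on the right side. The rule is then easier to meet, and these counts are not like for like with those reported. Ccr6 kept a positive month difference throughout, 0.68 with a pseudocount of 10 and 0.82 (without Apr13) to 1.57 (without Apr21) leaving out a run. The median rho of the 15 pairs was 0.0201 given genes detected, and 0.0785 without Apr13 to 0.134 without replicate 2; without Mar17 it has no value, since Irf4 is at 0 in all of Mar1.

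Between the Ccr6 classes 0 genes passed with no replicate block (471 at an unadjusted p under 0.05), with the 4 runs as replicate block (617) and with Ccr6-positive at 10 or above (786), which leaves 3 March cells. Leaving out a run gave 0 to 1 genes, the 1 being Traj27 without Mar17. That fit also leaves 3 March Ccr6-positive cells, fewer than the 5 planned as a minimum per class. None of the member differences passed in any of these fits, and their signs were not stable. With log2 of the mean linear value the differences were -1.18 for Rora, -0.85 for Stat3, -1.31 for Batf and -0.21 for Il1r1. Batf was at -0.0205 with Ccr6-positive above 0, and Stat3 at -0.14 with a pseudocount of 10 and -0.0237 with quantile normalization. Leaving out a run or capture gave -0.0749 to 0.69 for Rora, -0.0162 to 0.31 for Stat3, -0.89 to 0.0363 for Hif1a and -0.0770 to 0.83 for Il1r1. Sequencing depth per cell is unknown, and small classes of cells limit every share.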
